A study of Mus musculus with 7 samples.

Results

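The probes of 9 transcription factor genes that govern skeletal muscle differentiation were followed in C2C12 muscle cells that had received exosomes. The genes were Myf5, Myf6, Myod1, Myog, Mef2a, Mef2c, Mef2d, Pax7 and Six4, and every non-control probe carrying one of these names on the array was taken, which gave 9 of 31829 gene names and 11 of 39429 probes. C2C12 cells are mouse myoblasts of an established line, and they fuse into multinucleated myotubes when growth factors are withdrawn. The paper describes the recipients as myotubes, whereas the array labels state myoblast as cell type. The cell line label counts up from C2C12 to C2C18 over the samples, and all were taken as C2C12. Donor C2C12 cultures had been exposed to palmitate at 0.5 mmol/l, complexed to BSA, or to BSA alone, and the exosomes they released after its withdrawal were given to untreated recipient C2C12 cells for 24 h. Cells of the EXO-Palm group (n = 3) received exosomes of the palmitate-treated donors and cells of the EXO-BSA group (n = 4) those of the BSA-treated donors, the names EXO-Post Palm and EXO-Post BSA being used for them in the paper. No group without exosomes was analysed here, so each difference below is between the 2 kinds of exosome.

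Myogenic regulatory factors are basic helix-loop-helix proteins that bind the E-box, a short DNA motif, together with E proteins. Myf5 and Myod1 commit cells to the muscle lineage, Myog drives terminal differentiation and fusion, and Myf6 (also called MRF4) acts mostly in differentiated fibres. MEF2 proteins bind an A/T-rich motif and act with the myogenic factors on muscle genes, while Pax7 marks satellite cells and Six4 lies upstream of the myogenic factors. RNA was measured by one-colour hybridisation to an Agilent mouse array carrying probes of 60 bases. A level here is the log2 of the processed intensity minus the log2 of the 75th percentile of that array, so that 0 is the 75th percentile and 1 unit is a doubling. Levels of different probes were not compared with each other, because probes differ in their binding.

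The sequences that the results turn on are shown. They are the Myf5 probe, which was not well above background on any array, and Myod1 and Myog, which moved with the slide. The last is the Mef2a probe A_65_P08239, whose difference lay furthest from 0. Each line holds 30 of the 60 probe bases, 5′ to 3′, and capitals mark AATAAA, the canonical polyadenylation signal, searched on the printed strand.
Myf5 A_51_P188281, bases 31 to 60: aaatgtactattattatcAATAAAatattt
Myod1 A_51_P351166, bases 31 to 60: gtttgtttgttttttcatgcggctcacagc
Myog A_51_P102122, bases 1 to 30: atcttgggaaccttccagtgctttgtgtat
Mef2a A_65_P08239, bases 31 to 60: actttttagttttattttaagaggggagaa

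In the mm9 coordinates of the array annotation, the Myf5 probe lies at chr10:106919974-106920033 and the Myf6 probe at chr10:106930237-106930296, both on the minus strand and 10203 bases apart, which reflects the known tandem arrangement of these genes. The Myod1 probe lies at chr7:53633956-53634015 and the Myog probe at chr1:136188874-136188933, both on the plus strand. The Mef2a probes lie on the minus strand at chr7:74379575-74379634 for A_55_P1985159 and at chr7:74378751-74378810 for A_65_P08239, the latter 824 bases further along the same transcript. The Mef2c probe spans an intron between chr13:83772788 and chr13:83775025, and the Mef2d probe A_51_P504672 spans one between chr3:87972214 and chr3:87972560, so both join exons of the spliced mRNA. The Mef2d probe A_55_P1966958 lies at chr3:87972971-87973030 on the plus strand. The Pax7 probe lies at chr4:139294364-139294423 and the Six4 probe at chr12:74201246-74201305, both on the minus strand. In base composition, A and T made up 85% of the Myf5 probe and 78.3% of the Mef2a probe A_65_P08239, against a median of 56.7% over the 21589 tested probes. Only 0.148% of tested probes were as rich in A and T as the latter Mef2a probe. The Myf5 probe held AATAAA at 2 places, and 12.6% of all probes on the array held it.

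The arrays stood on 4 slides, and only slides 1 and 3 held both groups. Slide 1 held EXO-BSA replicates 1 and 2 with EXO-Palm replicate 1, slide 3 held EXO-BSA replicate 4 with EXO-Palm replicate 3, slide 2 held EXO-BSA replicate 3 and slide 4 held EXO-Palm replicate 2. The share of probes well above background ranged from 48.3% to 70.3% between arrays. Of the 12 tested myotube marker probes, 11 were well above background on every array. The other, a Ttn probe, had no value on EXO-BSA replicate 3 and was well above background on the remaining 6. Of the 10 myoblast and satellite cell marker probes, 9 were well above background on every array, the exception being Myf5. Of the 11 tested probes of proliferation markers, 2 Ccnb1 probes entered the test only through EXO-Palm, where they were high, and are not counted. The other 9 were all higher in EXO-Palm, by 1.77 to 2.76, and 5 of them passed the test (0.463% of all tested probes were called higher). The proliferation list had a summed linear level relative to the 75th percentile of 6.10 to 7.67 in EXO-BSA and 19.5 to 51.4 in EXO-Palm. Unlike the counts, this sum took all 14 probes of the list, with the 2 Ccnb1 probes and those not tested. The myoblast and satellite cell markers, a list that includes Pax7 and Myf5, summed to 242.8 to 268.7 in EXO-BSA and 144.0 to 197.3 in EXO-Palm. The fibroblast markers summed to 115.3 to 146.4 and 80.0 to 102.8. Neither sum overlapped between the groups, although 0 of the 9 and 0 of the 5 tested probes passed the test. A linear sum is carried by its brightest probes. These were Itga7 (difference -0.67) in the first list, and Col3a1 (-0.35) and Col1a1 (-1.64) in the second. Single probes went both ways, with 2 above 0 and 7 below in the first list, and 2 above and 3 below in the second. The part of these differences in the results on the factors was not tested. In bulk RNA, fewer cells expressing a gene and less RNA per cell cannot be told apart.

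No factor changed past the test. Of the 11 probes, 10 were tested, representing 8 genes, and 0 had an adjusted p under 0.05 (limma, Benjamini-Hochberg over all tested probes), against 0.533% of all tested probes. At an unadjusted p under 0.05 the count was also 0 of 10, against 10% of all tested probes, and for 0 of 10 did the groups not overlap, against 11.3% of all. The fitted difference was above 0 for 4 probes and below 0 for 6, with a median of -0.04 beside -0.02 over all tested probes. All 10 intervals of 95% contained 0, and their widths varied between genes, so that the size of a difference these 7 arrays leave possible is given for each below.

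**Figure D1:**
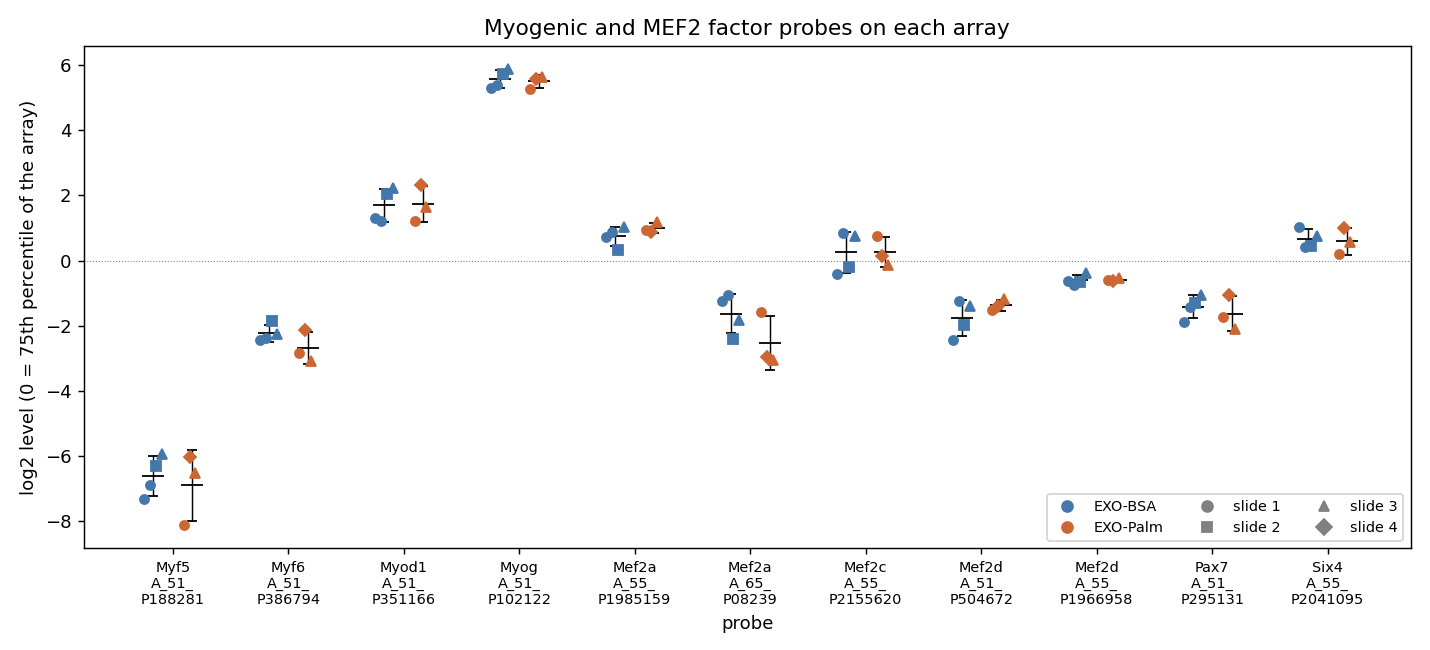
Level of each of the 11 probes on each array (y axis, log2, 0 is the 75th percentile of the array), with colour for the group, symbol for the slide, and bars for mean ± SD of 4 EXO-BSA and 3 EXO-Palm arrays. The groups overlap for every probe; heights of different probes are not comparable, and the Myf5 probe was not well above background on any array.

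Among the myogenic regulatory factors, Myog was read at levels of 5.32, 5.38, 5.72 and 5.90 in EXO-BSA replicates 1 to 4 and of 5.27, 5.59 and 5.66 in EXO-Palm replicates 1 to 3. The EXO-Palm values lay within or just below the EXO-BSA range, and the lowest values of both groups came from slide 1. The mean level was 5.58 ± 0.28 (SD, n = 4) in EXO-BSA and 5.51 ± 0.21 (SD, n = 3) in EXO-Palm. The difference was -0.07 (SE 0.23, limma adjusted p = 0.942), with an interval from -0.59 to 0.45, or from 0.665-fold to 1.36-fold. An exact permutation test over the 35 ways of parting the arrays gave a two-sided p of 0.686.

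Myod1, the founding member of the family, had levels of 1.30, 1.23, 2.05 and 2.23 in EXO-BSA and of 1.22, 2.33 and 1.66 in EXO-Palm. The highest and the lowest of the 7 values were both EXO-Palm arrays. The mean level was 1.70 ± 0.51 (SD, n = 4) in EXO-BSA and 1.74 ± 0.56 (SD, n = 3) in EXO-Palm, a difference of 0.03 (SE 0.35, limma adjusted p = 0.986). The interval ran from -0.77 to 0.84, or from 0.585-fold to 1.79-fold. At this standard error a difference of 2.09 would have been needed to reach the smallest moderated statistic of any called probe, against 1.35 for Myog.

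Myog, Myod1 and Myf5 are each printed at 10 spots per array, which separates the error of the spots from the spread between arrays. For Myod1 the SD between spots of an array was 0.0960 to 0.224, and the SD between the 7 arrays was 0.48. For Myog the SD between spots was 0.117 to 0.257, and the SD between arrays was 0.23. The spot values are for single spots, whereas each array value is a mean of 9 or 10 spots. The spot error in an array value is therefore smaller than the SD between spots.

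Myf5 was not well above background on any of the 7 arrays, and only 1 of its 70 spots over all arrays met that criterion by itself. The weaker mark of a positive and significant signal was met by 17 of the 70 spots. Its mean processed intensity was 7.78, 7.93, 10.71 and 12.33 in EXO-BSA and 5.79, 9.83 and 6.01 in EXO-Palm, while the lowest intensity of a probe well above background lay between 18.98 and 36.88 on these arrays. All values were thus below the range in which a level can be read, so no fold is given. This probe showed no usable signal, which leaves the Myf5 transcript unmeasured here rather than absent.

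Myf6 was well above background on all arrays, with levels of -2.44, -2.37, -1.87 and -2.27 in EXO-BSA and of -2.85, -2.12 and -3.08 in EXO-Palm. EXO-Palm replicates 1 and 3 lay below all EXO-BSA arrays, whereas replicate 2 lay above 3 of them. The difference was -0.45 (SE 0.28, limma adjusted p = 0.638), with an interval from -1.08 to 0.19, and the exact permutation p was 0.229. EXO-Palm was lower by 0.45 on slide 1 and by 0.81 on slide 3 when compared with EXO-BSA arrays of the same slide. With slide as a block the difference was -0.60 (SE 0.26, limma adjusted p = 0.517), with an interval from -1.21 to 0.0075. A slide with a single array cannot inform the block fit, so its difference comes from slides 1 and 3 only. It restates the within-slide differences and is not a further result beside them.

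The MEF2 genes were read by 5 probes. Mef2a had levels of 0.74, 0.89, 0.33 and 1.02 in EXO-BSA and of 0.94, 0.89 and 1.19 in EXO-Palm by probe A_55_P1985159. By this probe EXO-BSA replicate 3 was the lowest and EXO-Palm replicate 3 the highest. The difference was 0.26 (SE 0.23, limma adjusted p = 0.745), with an interval from -0.26 to 0.78.

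By the second Mef2a probe, A_65_P08239, levels were -1.24, -1.06, -2.40 and -1.82 in EXO-BSA and -1.57, -2.96 and -3.06 in EXO-Palm. EXO-Palm replicates 2 and 3 lay below all EXO-BSA arrays, but replicate 1 lay above 2 of them. The difference of -0.90 was the furthest from 0 of the 10 tested probes (SE 0.45, limma adjusted p = 0.552), with an interval from -1.92 to 0.11 and an exact permutation p of 0.171. The adjusted p of this probe ranged down to 0.263 over the alternatives run, the lowest value obtained for any of these genes. With slide as a block, which rests on slides 1 and 3 only, the interval ran from -1.47 to -0.08, whereas the limma adjusted p was 0.459.

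The second Mef2a probe was subtracted from the first within each array, which is free of the scaling between arrays. This difference between the probes was 1.98, 1.94, 2.74 and 2.84 in EXO-BSA and 2.52, 3.85 and 4.25 in EXO-Palm. EXO-Palm replicate 1 fell inside the EXO-BSA range, while EXO-Palm replicates 2 and 3 lay above it. The mean difference between the probes was higher by 1.16 in EXO-Palm, which did not pass the exact permutation test (two-sided p = 0.114, adjusted p = 0.457 over 4 such pairs). The annotation names the same transcript for both probes, and A and T made up 61.7% of the first and 78.3% of the second.

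Mef2c was measured by 1 probe across an intron, with levels of -0.40, 0.84, -0.19 and 0.76 in EXO-BSA and of 0.76, 0.13 and -0.13 in EXO-Palm. The values of EXO-Palm lay wholly within the EXO-BSA range. Group means were 0.25 ± 0.64 (SD, n = 4) and 0.25 ± 0.46 (SD, n = 3), with a limma interval for the difference from -0.85 to 0.85. Nearly equal means thus came with an interval from 0.553-fold to 1.81-fold.

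Mef2d was read by 2 probes of unlike spread. Levels by A_55_P1966958 were -0.63, -0.74, -0.65 and -0.38 in EXO-BSA and -0.61, -0.62 and -0.55 in EXO-Palm, so that all 7 arrays lay close together. Its residual SD of 0.122 stood at the 1.82 percentile of all tested probes. The difference was 0.0032 (SE 0.19, limma adjusted p = 0.998), with the narrowest interval of the 10, from -0.43 to 0.43, or 0.743-fold to 1.35-fold.

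Levels by the exon-joining Mef2d probe A_51_P504672 were -2.43, -1.25, -1.97 and -1.38 in EXO-BSA and -1.53, -1.39 and -1.19 in EXO-Palm. EXO-BSA replicates 1 and 3 were lower than every EXO-Palm array, and EXO-BSA replicates 2 and 4 lay among them. The difference was 0.39 (SE 0.31, limma adjusted p = 0.714), with an interval from -0.31 to 1.09. Set against the other Mef2d probe within each array, the change was 0.39 (exact permutation p = 0.314, adjusted p = 0.629 over the same 4 pairs).

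Of the upstream factors, Pax7 had levels of -1.89, -1.43, -1.30 and -1.06 in EXO-BSA and of -1.74, -1.04 and -2.12 in EXO-Palm. The EXO-Palm arrays included the highest and the lowest of the 7 values. The difference was -0.21 (SE 0.31, limma adjusted p = 0.852), with an interval from -0.91 to 0.49. Six4, a homeodomain protein, had levels of 1.05, 0.40, 0.45 and 0.77 in EXO-BSA and of 0.19, 1.01 and 0.57 in EXO-Palm, and the groups overlapped. Its difference was -0.08 (SE 0.27, limma adjusted p = 0.945), with an interval from -0.69 to 0.53.

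**Figure D2:**
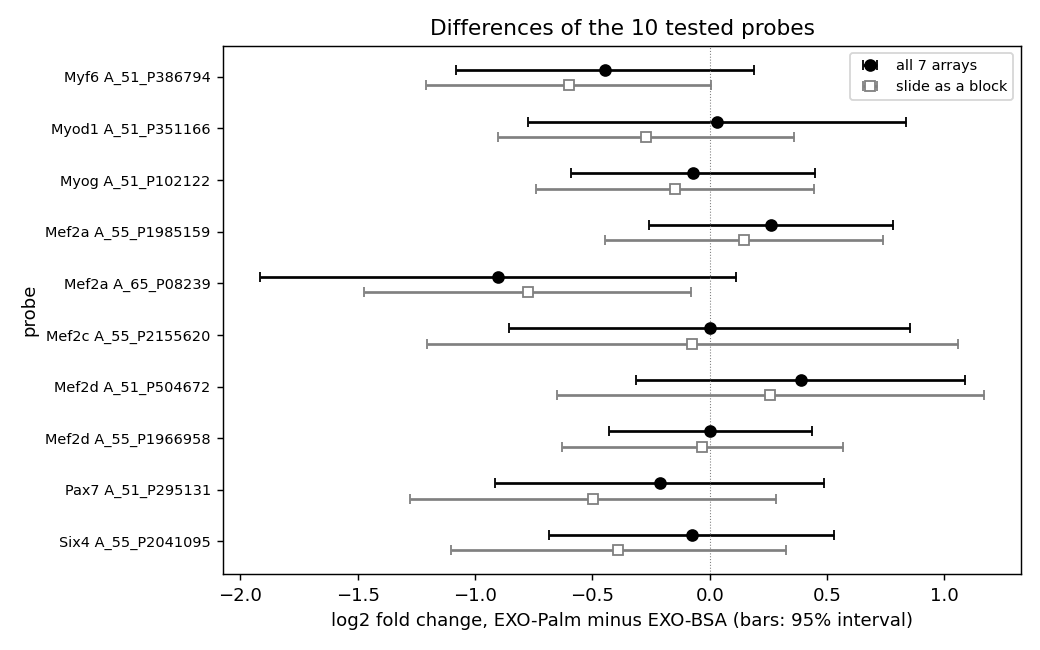
Difference of EXO-Palm minus EXO-BSA (x axis, log2) for the 10 tested probes, with 95% intervals from limma over all 7 arrays (filled) and with slide as a block (open). All 10 intervals over the 7 arrays contain 0; with the block, the Mef2a probe A_65_P08239 has an interval from -1.47 to -0.08 and an adjusted p of 0.459.

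Myod1 and Myog differed more between slide 1 and the other slides than between the kinds of exosome. Slide 1 also stood apart in signal, with 61.9% to 70.3% of probes well above background against 48.3% to 53.5% on the other arrays, and with a 75th percentile of intensity, the value subtracted from each level, of 903.4 to 1621 against 549.4 to 851.7. The part of this in the shifts was not tested. The 3 arrays of slide 1 had Myod1 levels of 1.22 to 1.30, below the 1.66 to 2.33 of the other 4 arrays, a difference in means of -0.82. For Myog the 3 arrays of slide 1 lay at 5.27 to 5.38 and the others at 5.59 to 5.90, a difference in means of -0.39. The Mef2a probe A_65_P08239 was placed the other way, at -1.57 to -1.06 on slide 1 and at -3.06 to -1.82 elsewhere. Thus slide 1 stood apart from the other arrays for 3 of the 10 tested probes, 2 lower and 1 higher. Among the 21137 tested probes with a value on all 7 arrays, the share with slide 1 apart was 8.88%. As slide 1 held 2 of the 4 EXO-BSA arrays and 1 of the 3 EXO-Palm arrays, both groups were present on it, and what differed between the slides besides the hybridisation is not given in the sources used here.

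Within slides, EXO-Palm replicate 1 differed from the mean of both EXO-BSA arrays of slide 1 by -0.05 for Myod1 and -0.08 for Myog. On slide 3, EXO-Palm replicate 3 differed from EXO-BSA replicate 4 by -0.57 for Myod1 and by -0.24 for Myog. Of the 10 tested probes, 6 were lower in EXO-Palm on slide 1, beside 54.6% of all tested probes, and 8 on slide 3, beside 46.6% of all. The 6 probes that were lower on both slides were those of Myf6, Myod1, Myog, Pax7 and Six4 and the Mef2a probe A_65_P08239, and 29.6% of all tested probes were lower on both. With slide as a block, Myod1 turned from 0.03 to -0.27 (SE 0.27, limma adjusted p = 0.778), with an interval from -0.90 to 0.36, and Myog moved to -0.15 (SE 0.25, limma adjusted p = 0.886). Each within-slide value rests on 1 EXO-Palm array and carries no test of its own. The block values are drawn from these same within-slide differences.

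**Figure D3:**
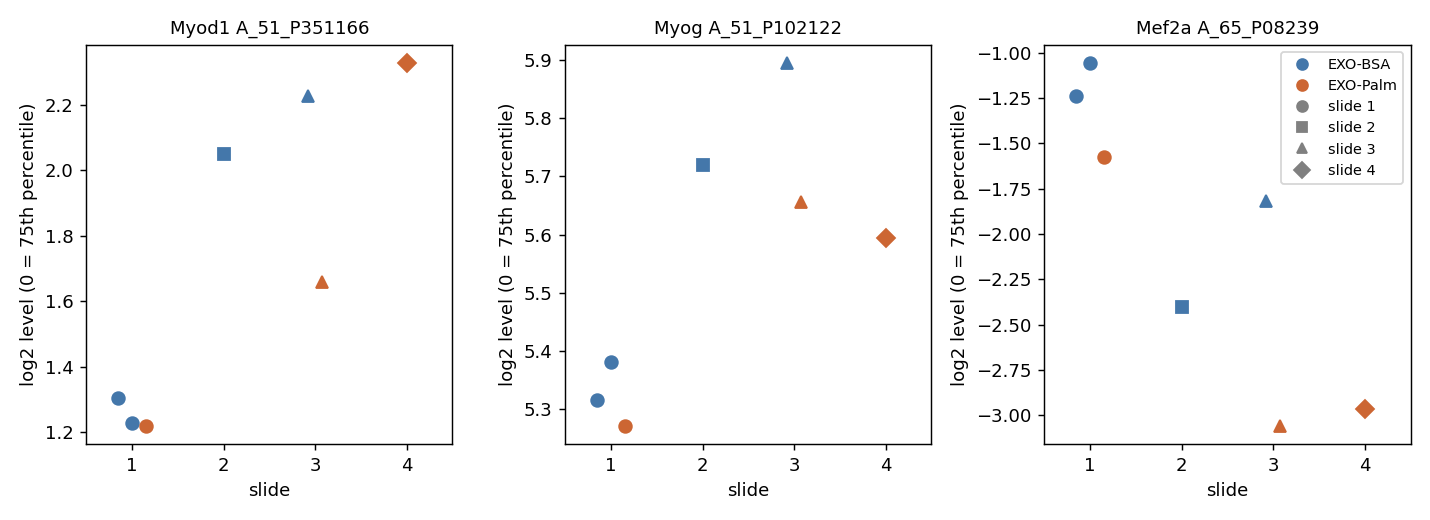
Levels (y axis, log2, 0 is the 75th percentile of the array) of Myod1, Myog and the Mef2a probe A_65_P08239 by slide (x axis), 1 point per array, with colour for the group. The 3 arrays of slide 1 lie below the other 4 for Myod1 and Myog and above them for the Mef2a probe.

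An unequal change of Myog and Myod1 was not detected. Myog minus Myod1 within an array averaged 3.88 ± 0.25 (SD, n = 4) in EXO-BSA and 3.77 ± 0.44 (SD, n = 3) in EXO-Palm, a change of -0.10 (exact permutation p = 0.771, also after adjustment over the 4 pairs). The fourth pair, of Myog with Myf5, is not given, because the Myf5 probe was not well above background on any array.

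The probes whose pattern over the 7 arrays lay closest to that of Myog, by the mean absolute difference of centred log2 levels, included those of Eef1d at 0.04 and Sbno1 at 0.05. For Myod1 they were those of Abhd4, Mefv and H2-Q2, at 0.09 to 0.10, and for Mef2c they included those of Nudcd2 at 0.09 and Ccdc111 at 0.11. No likeness was computed for Myf5, which was not tested.

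The Myog promoter is shown because Myog had the smallest standard error of the tested myogenic regulatory factors and is itself a known target of E-box and MEF2 binding. The line holds the 140 bases before the RefSeq gene start on the plus strand, at chr1:134289864-134290003 of GRCm38.p6, a build other than that of the probe coordinates, and capitals mark matches to CANNTG (the E-box) and to CTANNNNTA (a core of the MEF2 motif), both strands searched.
Myog promoter: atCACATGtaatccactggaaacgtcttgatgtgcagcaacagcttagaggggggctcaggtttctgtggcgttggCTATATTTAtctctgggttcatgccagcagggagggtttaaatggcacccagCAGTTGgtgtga
The E-box matches begin 138 and 12 bases before the gene start, and the MEF2 core match begins 64 bases before it. In the 250 bases before each RefSeq gene start, 66.2% of 32851 windows held CANNTG and 19% held CTANNNNTA, so that the presence of either is common. Windows were found for 7 of the 9 genes, of which 2 (Myog and Mef2c) held CANNTG and 3 (Myog, Myf5 and Mef2c) held CTANNNNTA.

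The partners, inhibitors and targets of the factors were taken as 7 lists of 72 genes in all, of which 62 genes were tested by 76 probes. Of these probes 0 passed the test, against 0.533% of all tested probes, while 14 had an unadjusted p under 0.05, beside 10% of all tested probes. The fitted difference was above 0 for 22 and below 0 for 54, with a median of -0.17 beside -0.02 over all tested probes, of which 52.7% were below 0. The groups did not overlap for 15 of the 76, beside 11.3% of all tested probes.

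E proteins, the dimer partners of the myogenic factors, were read by 6 probes of Tcf3, Tcf4 and Tcf12, 5 of them below 0. The list held both its furthest rise and its furthest fall in one gene. Tcf3 probe A_51_P394471 had levels of 0.84, 1.18, 1.07 and 0.95 in EXO-BSA and of 0.67, 0.46 and -1.65 in EXO-Palm, with a difference of -1.18 (SE 0.51, limma adjusted p = 0.487). Probe A_55_P1975354 of Tcf3 differed by 0.33 (SE 0.24, limma adjusted p = 0.689). EXO-Palm replicate 3 lay furthest from the other arrays by the first probe, and the probes disagreed in sign.

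Inhibitors of the MyoD family were read by 13 probes, of which 3 were above 0 and 10 below. Mdfi, which encodes I-mfa, a protein that holds myogenic factors in the cytoplasm, had levels of -0.45, -0.79, -0.71 and -0.59 in EXO-BSA and of -1.81, -1.02 and -1.60 in EXO-Palm. The groups did not overlap, and the difference of -0.84 (SE 0.24) had a limma adjusted p of 0.259. Id3, which sequesters E proteins, had the furthest value above 0 in the list, 0.35 (SE 0.29, limma adjusted p = 0.727).

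Of the class IIa histone deacetylases, which repress MEF2, 3 of 4 probes were above 0. Hdac7 differed by 0.54 (SE 0.25, limma adjusted p = 0.532) and Hdac5 by -0.05 (SE 0.26, limma adjusted p = 0.962). Coactivators were read by 11 probes, 9 of them below 0. Vgll2, a muscle cofactor of TEAD proteins, differed by -0.77 (SE 0.27, limma adjusted p = 0.375), with EXO-Palm levels of 2.15 to 2.22 below the EXO-BSA levels of 2.36 to 3.37. Prmt5, an arginine methyltransferase, differed by 1.86 (SE 1.61, limma adjusted p = 0.741). This value rested on EXO-BSA replicate 4 at -5.42, which was not well above background and lay below the lowest such level of that array, -4.41. The other EXO-BSA arrays read 1.31 to 2.04 and the EXO-Palm arrays 1.32 to 2.00, and without that array the difference in means was 0.098.

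Of the Eya and Dach families, whose proteins are cofactors of Six4 and its relatives, 3 of 9 probes were tested, and the other 6 were not well above background on any array. Eya1 differed by 0.70 (SE 0.33, limma adjusted p = 0.535) and Eya4 by -0.19 (SE 0.32, limma adjusted p = 0.877). Of the relatives of the 9 genes, Six5 differed by -0.55 (SE 0.20, limma adjusted p = 0.415).

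Muscle targets of the factors were read by 36 tested probes of 27 genes, of which 9 were above 0 and 27 below, with a median of -0.21 and 0 past the test. Ttn, which encodes the giant sarcomere protein titin, gave the furthest value below 0, -1.03 (SE 0.56, limma adjusted p = 0.595) by probe A_55_P2153031. By this probe EXO-BSA replicate 1 read -0.38 and the other EXO-BSA arrays -2.16 to -1.71. The Ttn probes A_52_P454295, A_55_P2424042 and A_55_P2153021 differed by -0.86, -0.36 and -0.12. Kbtbd10, a kelch protein of muscle, gave the furthest value above 0, 0.61 (SE 0.25, limma adjusted p = 0.464). The summed linear level of this list, relative to the 75th percentile, was 1381 to 1503 in EXO-BSA and 1076 to 1344 in EXO-Palm. The myotube markers summed to 446.7 to 595.4 and 430.3 to 503.9. A missing value counted as 0 in these sums. The Ttn probe A_55_P2153021 was missing from both on EXO-BSA replicate 3, and the Tmem8c probe from the first on EXO-BSA replicate 4. Such sums are carried by their brightest probes.

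**Figure D4:**
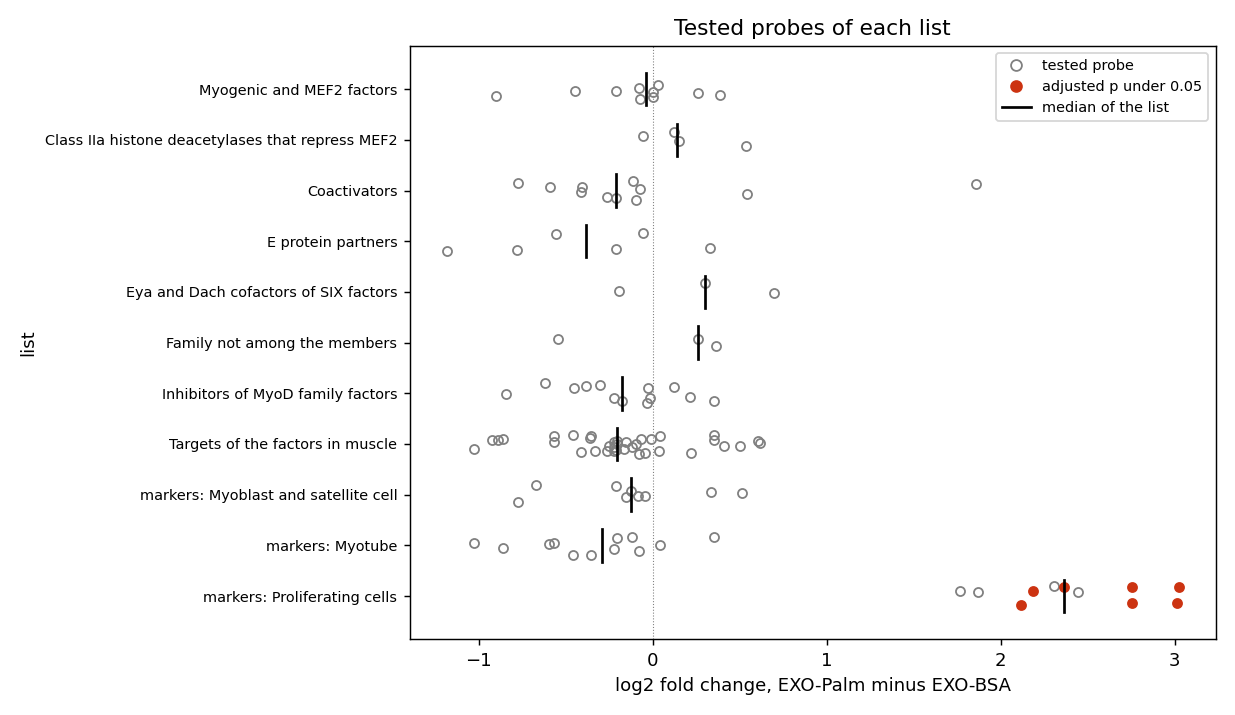
Difference of EXO-Palm minus EXO-BSA (x axis, log2) for each tested probe of the myogenic and MEF2 factors, of the 7 lists of partners and targets, and of 3 marker lists, with a line at each median and filled points for an adjusted p under 0.05. Filled points occur only in the proliferation markers, for 7 probes including the 2 Ccnb1 probes that entered the test only through EXO-Palm.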

How the data were processed

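RNA of 7 C2C12 cultures was hybridised to one-colour Agilent mouse arrays (4 EXO-BSA, 3 EXO-Palm), labelled as biological replicates. The authors deposited the scanner's processed intensity of 44397 spots per array, background-subtracted by Feature Extraction (version 10.7.3.1 for 6 arrays and 11.5.1.1 for EXO-BSA replicate 3, per the file headers), and a table of log2 values whose columns share 1 distribution. Each column followed its own array's signal in rank order (rank correlation 0.994 to 0.999), which does not test the scale. Rank correlations with the other arrays were not computed. The settings of the table's normalisation are not given in the sources used here. Methods name Agi4x44PreProcess, a package for preparing such arrays, and limma, both without settings, and a t-test in general.

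Here, log2 intensity minus the array's 75th percentile was used. Control spots and spots marked uneven or outlying were left out (2 or 3 in all for each gene printed 10 times, 0 for the others), and spots of a probe were averaged. Testing required a signal well above background on 75% or more of the arrays in 1 group or both (for repeated probes, counting the majority of spots). The difference between groups was fitted with lmFit and eBayes (limma 3.58.1, R 4.3.3) over 21589 probes, with Benjamini-Hochberg adjustment at 0.05, and single probes by exact permutation. The number of arrays limits precision, and p-values measure the spread between these arrays, in which culture, slide and hybridisation are not separated. Scripts were tested on simulated data. Members, gene lists and rules (all members; per list, any called gene, otherwise the furthest rise and fall; the 3 most alike probes; some of these items are not reported here) were chosen with earlier results of these data known. Same-numbered arrays did not deviate together (correlations 0.121, -0.151 and -0.147). Alternatives covered normalisation, filter, slide, array weights, variance model, test and left-out replicates. Marker lists of fibroblasts, adipocytes, osteoblasts, endothelial cells and macrophages gave 0 calls among 12 tested probes.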

Additional observations from a re-analysis of the deposited data

Results flagged for a closer look

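In the 4 EXO-BSA arrays, Dixon's test of the value furthest from the others was run for 25 probes, those of the 9 genes and those named from the lists, and chance marks about 1 in 20 such groups. It marked 1 of 25, the Prmt5 probe A_52_P677147, at -5.42 in EXO-BSA replicate 4 with the other EXO-BSA arrays at 1.31 to 2.04 (log2 level), a value not well above background. This probe was named as the furthest rise of its list, and that rise rested on the marked value. The rate of about 1 in 20 therefore does not apply to it. Dixon's test marked none of the 11 probes of the myogenic regulatory and MEF2 factors.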

How the results depend on the processing

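No member probe was called under any of the 20 alternatives, and the lowest adjusted p over them was 0.263. Of 10 fold changes, those of Myf6, of both Mef2a probes and of the Mef2d probe A_51_P504672 kept their sign under all 20. The other 6, all with main values close to 0 except that of Pax7, changed sign under 1 or more, and the cause was not tested. Mef2c came to 0.046 with normexp, 0.0039 with quantile normalisation, 0.056 with the percentile over probes above background on every array, 0.068 with the authors' values, 0.17 with the replicate block and 0.027 with array weights. The Mef2d probe A_55_P1966958 came to -0.052 with normexp, -0.0035 with quantile normalisation, -0.056 with median centring, -0.041 with the authors' values, -0.031 with slide as a block and -0.0073 with slide as a random block. Myod1 came to -0.026 with median centring, -0.27 with slide as a block and -0.045 with slide as a random block, Myog to 0.035 with the replicate block, and Six4 to 0.10 with normexp and 0.11 with the authors' values. With 1 array left out, Mef2c ranged from -0.25 to 0.19, this Mef2d probe from -0.044 to 0.077, Myod1 from -0.26 to 0.29, Myog from -0.16 to 0.048, Pax7 from -0.51 to 0.030 (above 0 only without EXO-Palm replicate 3) and Six4 from -0.29 to 0.12.

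Over the whole array, 115 probes were called, against 0 without a filter on dim probes, 181 with slide as a random block, 173 with a trended and robust variance, 0 by the methods' t-test after adjustment, and 4 to 228 with 1 array left out, 7 without EXO-Palm replicate 1, 4 without EXO-Palm replicate 3 and 61 to 69 without 1 EXO-BSA array. With the replicate number as a block, which the check of deviations did not bear out as a pairing, it was 0. Normexp used the median signal, chosen after seeing the data because 1 file held no mean signal; the planned version with the mean signal was not run. Low signal limits Myf5.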

Other observations

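The array holds 2 further probes whose annotation describes a MEF2 protein under another gene name, found by their description after the values of the Mef2 probes had been seen. The probe A_52_P175157, described as similar to MEF2A, had levels of 2.68, 1.84, 2.63 and 2.52 in EXO-BSA and of 1.35, 1.89 and 1.03 in EXO-Palm, a difference of -0.99 (SE 0.29, limma adjusted p = 0.282). EXO-Palm replicate 2 lay just above the lowest EXO-BSA array. The probe A_51_P394676, described as Mef2d protein, had levels of 3.75 to 4.13 in EXO-BSA and of 3.57 to 3.73 in EXO-Palm, a difference of -0.26 (SE 0.19, limma adjusted p = 0.696). Neither passed the test, and whether either probe reads the Mef2a or Mef2d transcript was not tested.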
